A study of Vitis riparia with 12 samples.

Results

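The comparison described here asks whether the effect of a short photoperiod on the shoot tips of the grapevine Vitis riparia was the same after 7 and after 21 days. For every gene the photoperiod effect of a day is the level under short days minus the level under long days, and the day difference is the effect at day 21 minus the effect at day 7. A positive day difference therefore means that levels under short days, relative to long days, were higher at day 21 than at day 7. A negative one means that they were lower, and either photoperiod can have moved. All 12 libraries of the series enter it, with 3 from long and 3 from short days at day 7 (LD7, SD7) and as many at day 21 (LD21, SD21). Of 29970 gene identifiers 21848 were tested, those with 3 or more libraries at 1 FPKM or above. FPKM is the number of sequenced fragments relative to the length of the transcript and to all mapped reads, and every difference below is on the log2(FPKM + 1) scale, on which changes of low genes appear smaller than they are.

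All 4 groups were vines of 1 genotype, PI588259, 6 years old and kept in pots in a greenhouse. They had a photoperiod of 15 h for 30 days before they were randomized, and the treatments began 5 days later. The LD7 and LD21 vines stayed at 15 h, and the SD7 and SD21 vines were moved to 13 h. Tips of 4 nodes were taken in the morning, each replicate pooling 5 vines, so a library is a mean over vines and over all tissues of the tip. For the long-day libraries the day is given by the sample titles.

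Perennial vines of temperate climates read the length of the day in their leaves and use it to time growth and rest. In Vitis riparia shortening days are known to slow and then stop the elongation of the shoot, after which the axillary buds enter dormancy and the tip dies back rather than setting a terminal bud. A photoperiod response that unfolds over weeks can hold genes that react within days and return, genes that react only once growth slows, and genes that turn from one direction to the other.

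FPKM totals ran from 982454 to 1106294 over the 12 libraries, and the 3 SD21 totals, from 1065021, were the highest. The 10 most abundant genes held 16.2% to 21.3% of the FPKM in SD21, 4.81% to 5.85% in LD21 and 8.48% to 9.94% at day 7. The part of that concentration in the differences was not tested beyond the 2 other scalings given below. No table at hand gives names for the identifiers, so each gene appears by identifier and with the coordinates of the deposited files, roles are not stated, and the labelled tissue could not be checked against its markers. In whole tips, fewer cells of a type and less RNA per cell cannot be told apart.

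The photoperiod effect differed between the days in 12045 of the 21848 tested genes, a share of 55.1%, at an adjusted p under 0.05 (limma, with Benjamini-Hochberg adjustment over all tested genes). The day difference was positive for 4292 of them (19.6%) and negative for 7753 (35.5%). At a size of 1 or more on the log2 scale, which is a 2-fold change of the effect, 3033 were positive and 5187 negative, together 37.6% of tested genes. The median day difference over all tested genes was -0.29, with an interquartile range of -1.01 to 0.46. The median photoperiod effect was -0.03 at day 7 and -0.30 at day 21. The excess of negative differences depended on the scaling: with quantile normalization the median was -0.01 and the split 5610 positive to 5670 negative, and with median-ratio scaling they were -0.02, 5729 and 5845. Single-gene values below are as fitted. To set one against the median gene, the median of its own quantity is subtracted, which is 0.11 for changes with time under long days and -0.20 for those under short days.

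**Figure D1:**
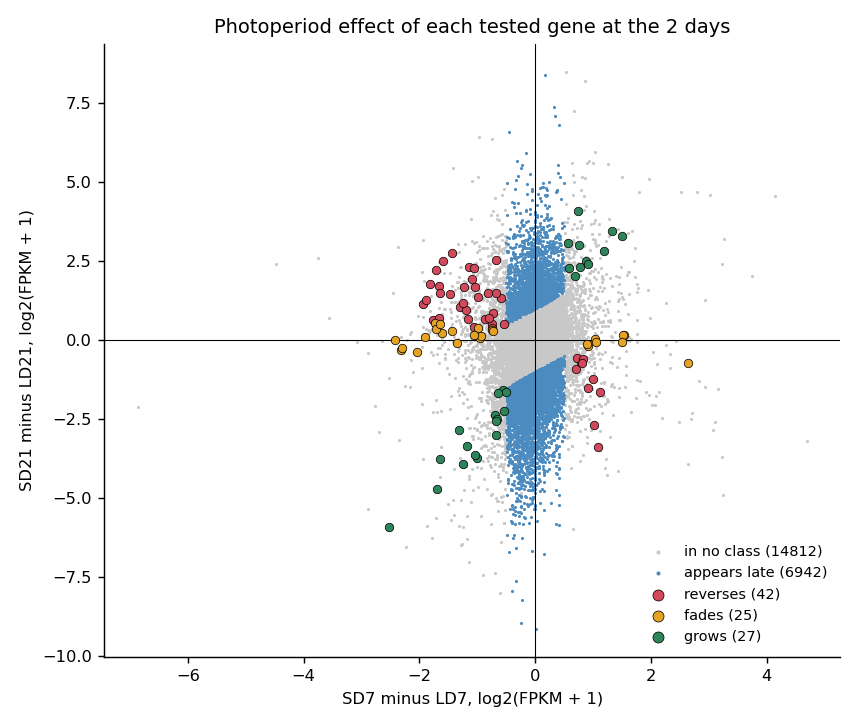
Each point is 1 of the 21848 tested genes, with its photoperiod effect at day 7 (SD7 minus LD7) on the horizontal axis and at day 21 (SD21 minus LD21) on the vertical axis, both on the log2(FPKM + 1) scale. Blue points are the 6942 genes whose effect appeared late, and larger points mark the 42 that reversed (red), the 25 that faded (orange) and the 27 that grew (green). The cloud is narrow along the day 7 axis and wide along the day 21 axis.

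Most of the day difference was an effect that was small at day 7 and present at day 21. Genes were counted as late where the day difference was called at 1 or more, the effect was called at day 21, and the day 7 effect was not called and under 0.5 in size. There were 2369 such genes toward higher and 4573 toward lower levels under short days. These limits use the day difference itself, so the counts are a description and carry no test of their own. Genes that became higher had median levels of 9.71 (LD7), 9.54 (SD7), 7.04 (LD21) and 27.9 FPKM (SD21). Those that became lower had 16.2, 15.9, 21.2 and 4.45 FPKM in the same order. In both directions the day 7 groups lay close together, as the limit on the day 7 effect requires. LD21 lay slightly away from them on the side opposite to SD21, which choosing genes by the day difference favours. The split between the directions again changed with the scaling, to 3107 against 3283 with quantile and 3209 against 3357 with median-ratio scaling.

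The largest late rise was that of VIT_00s0226g00170, a locus of 872 bp on unplaced sequence (Un in the files) at 14949259 to 14950130. It was at 0.720, 0.134 and 0.227 FPKM in LD7 against 0.0913, 0 and 2.16 in SD7, and at 0, 0.494 and 0.850 in LD21 against 181, 581 and 975 in SD21. The gene was at 2.16 FPKM or less in 9 libraries and high in the 3 of SD21, without overlap. Outside SD21 only SD7 replicate 3 reached 1 FPKM, so the gene was tested only through the group where it was high. Its effect was 0.18 ± 0.59 (SE) at day 7 and 8.39 ± 0.59 at day 21, a day difference of 8.21 ± 0.83 (limma, adjusted p = 1.9e-05).

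VIT_19s0014g02740 (chromosome 19, 2789636 to 2790200) behaved differently in that it was abundant throughout. It was at 1884, 1250 and 1446 FPKM in LD7 against 1629, 1472 and 2785 in SD7, and at 473, 353 and 1025 in LD21 against 93161, 67274 and 127676 in SD21. All LD21 libraries lay below all day 7 libraries, and all SD21 libraries far above them. The day difference of 7.06 ± 0.55 (SE, limma, adjusted p = 4.2e-06) thus joined a fall under long days of -1.44 ± 0.39 (adjusted p = 0.031) to a rise under short days of 5.62 ± 0.39 (adjusted p = 7.1e-07). After quantile normalization the day difference was 5.62.

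In the other direction VIT_07s0130g00030 (chromosome 7, 20130292 to 20131700) was at 1403, 1202 and 723 FPKM in LD7 against 1275, 849 and 1143 in SD7. At day 21 it was at 2356, 1679 and 2109 in LD21 against 3.72, 1.38 and 3.19 in SD21. The photoperiods overlapped at day 7 and were separated by a wide gap at day 21, and the day difference was -9.14 ± 0.42 (SE, limma, adjusted p = 7.4e-07). VIT_09s0018g00510, a locus of only 143 bp on chromosome 9 at 16727010 to 16727152, was at 470, 257 and 278 FPKM in LD7 against 224, 339 and 264 in SD7, and at 510, 530 and 434 in LD21. It was listed at 0 in all 3 SD21 libraries (limma, adjusted p of the day difference = 1.6e-07), so no fold is given. FPKM of so short a locus are uncertain with reads of 43 bp.

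**Figure D2:**
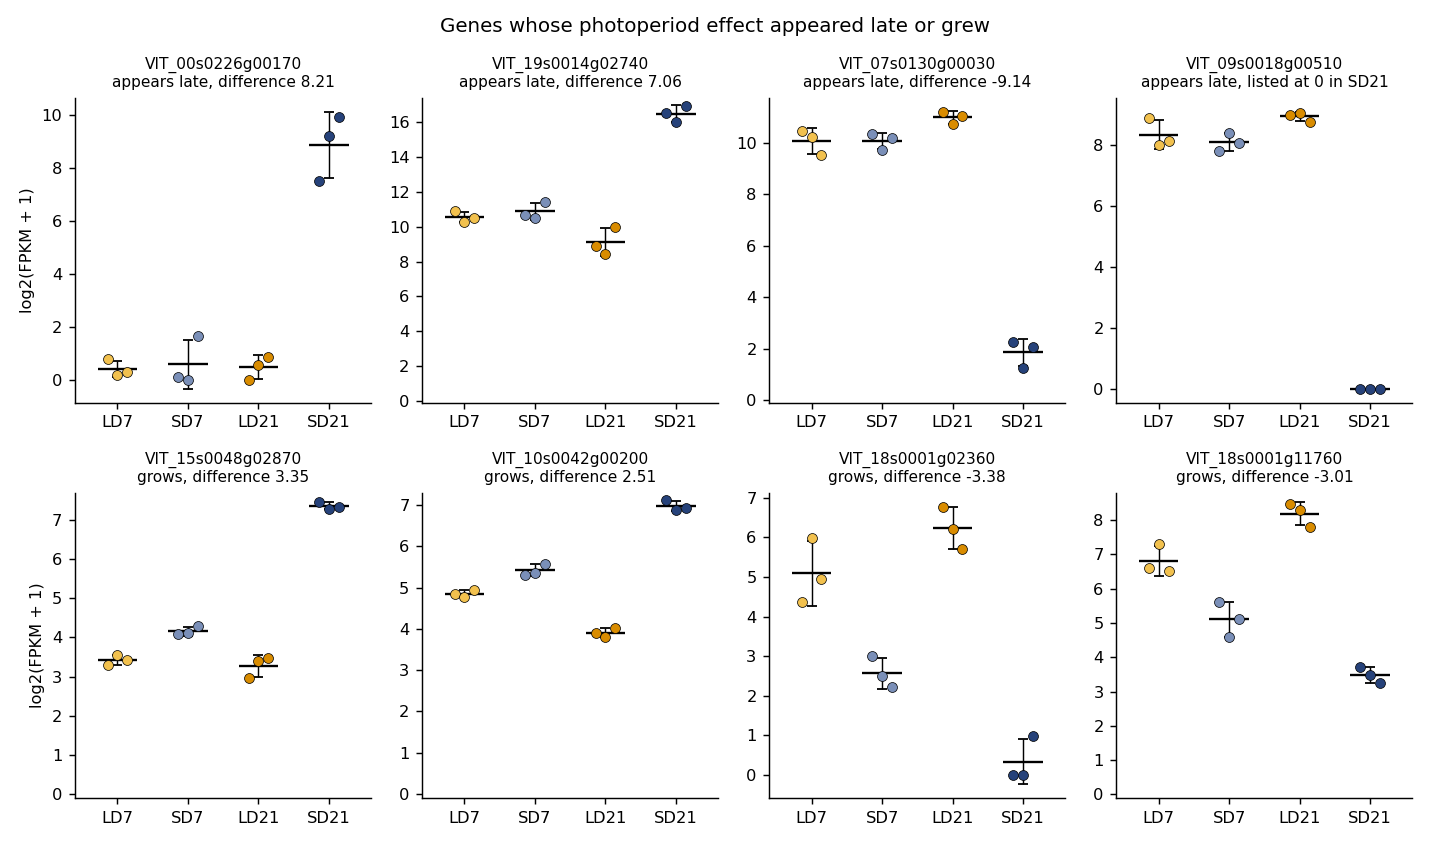
Points are single libraries on the log2(FPKM + 1) scale in the groups LD7, SD7, LD21 and SD21, horizontal bars are group means and error bars are SDs (n = 3), with 4 genes whose effect appeared late above and 4 whose effect grew below. Among the late genes the day 7 groups overlap and only SD21 stands far apart, and among the growing genes SD7 already stands to 1 side of LD7.

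Genes whose photoperiod effect reversed sign were fewer. With the effect called at both days, in opposite directions, and a day difference of 1 or more, 32 genes were lower under short days at day 7 and higher at day 21, and 10 were higher first and lower later. The effect was called at day 7 in 182 genes (0.833% of tested genes) and at day 21 in 14921 (68.3%), so the day 7 calls limit this count. Without the test, the SD libraries lay wholly below the LD libraries at day 7 and wholly above them at day 21 in 632 genes (2.89%), and the reverse held in 663 (3.03%). At day 7 alone they lay wholly below in 13.7% and wholly above in 11.1% of tested genes. At day 21, 24.6% were called higher and 43.7% lower, which is a share by the test and not by overlap. With such shares many genes can meet both conditions even if the days are unrelated. The counts alone therefore do not show an excess of reversal, which was not tested. Among the 32 genes the median effect was -1.15 at day 7 and 1.36 at day 21. Their median level was 14.5 FPKM in LD7 against 6.61 in SD7, and 13.1 in LD21 against 34.7 in SD21. Among the 10 genes the median effect was 0.87 at day 7 and -1.07 at day 21, at 35.0, 60.9, 32.5 and 19.3 FPKM. Of those 10, 5 lay on unplaced sequence, against 10.1% of all tested genes. In both directions the LD21 median was close to that of LD7, and SD7 and SD21 lay on opposite sides of them. Choosing genes by opposite effects on the 2 days favours the latter.

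Among genes lower first and higher later, VIT_08s0056g00290 (chromosome 8, 414951 to 415829) had the largest day difference. It was at 23.1, 25.0 and 26.7 FPKM in LD7 against 6.78, 6.84 and 13.5 in SD7, and at 10.1, 14.3 and 13.2 in LD21 against 67.8, 133 and 79.1 in SD21. The photoperiods did not overlap on either day, and long-day levels themselves fell with time. The effect was -1.43 ± 0.28 (SE, limma, adjusted p = 0.045) at day 7 and 2.75 ± 0.28 (adjusted p = 4.9e-06) at day 21, a day difference of 4.18 ± 0.39 (adjusted p = 1e-05).

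VIT_16s0013g01090 (chromosome 16, 6978313 to 6979340) was at 4.25, 4.76 and 6.50 FPKM in LD7 against 0.789, 0.617 and 1.24 in SD7, and at 4.44, 6.35 and 2.78 in LD21 against 21.6, 25.7 and 24.5 in SD21. The LD groups of both days overlapped each other, the SD7 libraries lay below both and the SD21 libraries above both. The effect was -1.71 ± 0.23 (SE, limma, adjusted p = 0.017) at day 7 and 2.23 ± 0.23 (adjusted p = 6e-06) at day 21, a day difference of 3.94 ± 0.33 (adjusted p = 5e-06).

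Among genes higher first and lower later, VIT_19s0014g01780 (chromosome 19, 1945206 to 1947498) was at 6.87, 4.92 and 4.51 FPKM in LD7 against 10.4, 11.1 and 16.6 in SD7. At day 21 it was at 10.7, 12.6 and 9.08 in LD21 against 0.236, 0.107 and 0.0574 in SD21. All SD7 libraries lay above LD7 and all SD21 libraries close to 0. The effects were 1.08 ± 0.20 (SE, limma, adjusted p = 0.042) and -3.37 ± 0.20 (adjusted p = 1.1e-07), a day difference of -4.45 ± 0.28 (adjusted p = 1.7e-06).

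VIT_00s0283g00030 (Un, 21173411 to 21176682) was at 78.6, 87.0 and 84.4 FPKM in LD7 against 180, 138 and 197 in SD7, and at 176, 190 and 248 in LD21 against 28.9, 39.9 and 24.4 in SD21. The LD21 libraries reached the levels that SD7 had at day 7, while SD21 lay below every other library. The effects were 1.02 ± 0.20 (SE, limma, adjusted p = 0.043) and -2.69 ± 0.20 (adjusted p = 3.5e-07), a day difference of -3.71 ± 0.28 (adjusted p = 3.1e-06), and the rise from LD7 to LD21 was 1.27 ± 0.20 (adjusted p = 0.0033).

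The day differences of these 4 genes were called with each of the 12 libraries left out, with a highest adjusted p of 5.7e-05 (limma), but their day 7 calls rested on few libraries. Each lost its day 7 call without any 1 of LD7 replicates 1, 2 and 3 or SD7 replicates 1 and 2, with adjusted p up to 0.17. VIT_08s0056g00290 also lost it without LD21 replicates 2 or 3 or SD21 replicates 1 or 3, VIT_19s0014g01780 without SD7 replicate 3, LD21 replicate 2 or SD21 replicates 1 or 3, and VIT_00s0283g00030 without SD7 replicate 3, LD21 replicate 2 or SD21 replicate 1. The count of 42 was 1, 0 and 3 without LD7 replicates 1, 2 and 3, 5 and 4 on omitting SD7 replicates 1 and 2, and 17 and 24 on omitting LD21 replicate 2 and SD21 replicate 1 (limma). Without LD7 replicate 2, 2158 of 21773 tested genes had an unadjusted p under 0.05 at day 7 (limma). A share of 0.05 would fall there without any effect. With any 1 library left out, all 42 genes had the same sign on both days and a called day difference, and none had an unadjusted day 7 p above 0.0025 (limma). The 42 were chosen by these calls in the same libraries, so the refits are no separate support for a reversal. SD7 replicate 3 was the highest SD7 library in 23 of the 32 genes that were lower first, against 25.6% of all tested genes.

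An effect that was called at day 7, and at day 21 was no longer called and smaller in size, was found in 25 genes. Of these, 17 were lower under short days at day 7 and 8 were higher. The 17 had a median effect of -1.61 at day 7 and 0.15 at day 21, at median levels of 19.0, 8.03, 22.3 and 27.3 FPKM in LD7, SD7, LD21 and SD21. The 8 had a median effect of 1.27 and then -0.06, at 9.18, 23.6, 7.42 and 7.79 FPKM. In both sets SD7 was the group that stood apart. A call missed at day 21 does not show that the photoperiods were alike on that day.

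VIT_04s0008g01380 (chromosome 4, 1129766 to 1131804) was at 8.61, 9.96 and 7.94 FPKM in LD7 against 2.23, 1.11 and 2.78 in SD7, and at 10.8, 21.4 and 15.8 in LD21 against 19.1, 21.4 and 30.3 in SD21. The SD7 libraries were the lowest of all 12, and LD21 and SD21 overlapped. The effect of -1.73 ± 0.27 (SE, limma, adjusted p = 0.024) at day 7 gave way to 0.56 ± 0.27 (adjusted p = 0.086), a day difference of 2.29 ± 0.38 (adjusted p = 0.00039). Its day 21 effect became a called rise after quantile normalization (adjusted p = 0.0155), after median-ratio scaling (0.0133) or without LD21 replicate 2 (0.028), so under those settings it reversed rather than faded.

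In VIT_10s0116g00410 (chromosome 10, 190069 to 195160) the long-day level came down to that of the other libraries. It was at 8.58, 6.29 and 8.52 FPKM in LD7 against 1.76, 0.974 and 3.04 in SD7, and at 2.62, 1.62 and 1.06 in LD21 against 4.80, 2.17 and 2.17 in SD21. The LD7 libraries lay above the other 9, which overlapped. The fall from LD7 to LD21 was -1.69 ± 0.32 (SE, limma, adjusted p = 0.007) and SD21 against SD7 gave 0.47 ± 0.32 (adjusted p = 0.22). The effects were -1.64 ± 0.32 (adjusted p = 0.044) and 0.52 ± 0.32 (adjusted p = 0.16), a day difference of 2.16 ± 0.45 (adjusted p = 0.0017), and the day 21 effect was called after quantile normalization (adjusted p = 0.0216).

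Of the genes higher at day 7, VIT_00s0179g00150 (Un, 7416096 to 7419674) was at 3.31, 5.73 and 3.05 FPKM in LD7 against 30.5, 17.5 and 47.7 in SD7, and at 9.20, 2.01 and 1.45 in LD21 against 1.64, 1.94 and 1.15 in SD21. Its 3 SD7 libraries were the highest of all 12, and the other groups overlapped in part. The effect went from 2.64 ± 0.50 (SE, limma, adjusted p = 0.044) to -0.73 ± 0.50 (adjusted p = 0.22), a day difference of -3.37 ± 0.71 (adjusted p = 0.0021). Similar in pattern, VIT_19s0014g02900 (chromosome 19, 3010046 to 3013634) was at 3.04, 6.65 and 5.87 FPKM in LD7 against 14.6, 20.2 and 13.5 in SD7, and at 6.39, 4.46 and 4.34 in LD21 against 2.99, 7.17 and 4.80 in SD21. Its SD7 libraries stood above the other 9, which were intermixed. Its effects were 1.50 ± 0.30 (SE, limma, adjusted p = 0.046) at day 7 and -0.06 ± 0.30 (adjusted p = 0.86) at day 21, a day difference of -1.56 ± 0.42 (adjusted p = 0.0083).

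The day 7 calls of all 4 named fading genes were lost without any 1 of LD7 replicates 1, 2 and 3 and SD7 replicates 1 and 2, with adjusted p up to 0.17 (limma), and those of the last 3 also without LD21 replicate 2 and at least 1 other library. Their day differences were called in every such fit, with adjusted p up to 0.022. With 1 library left out, the day 7 effect of VIT_04s0008g01380 ran from -1.91 to -1.49, that of VIT_10s0116g00410 from -1.90 to -1.39, that of VIT_00s0179g00150 from 2.30 to 3.00 and that of VIT_19s0014g02900 from 1.22 to 1.68. The count of 25 was 0, 0 and 2 without LD7 replicates 1, 2 and 3 (limma), 4 without either of SD7 replicates 1 and 2, and 12, 14 and 15 without LD21 replicate 2, LD21 replicate 3 and SD21 replicate 1. Without LD7 replicates 1 and 2, 2389 of 21755 and 2158 of 21773 tested genes had an unadjusted p under 0.05 at day 7 (limma). The day difference was called in 24 of the 25 genes without any 1 of the LD7 libraries, where VIT_01s0010g00880 no longer passed the filter on low values, in 25 of 25 without any other library, in 24 after quantile normalization and in 25 after median-ratio scaling. The effects had the same signs on both days in 22 to 25 of the 25 with 1 library left out, in 19 after quantile normalization and in 18 after median-ratio scaling. The 25 were chosen by their calls in the same libraries, so these tallies are a description.

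**Figure D3:**
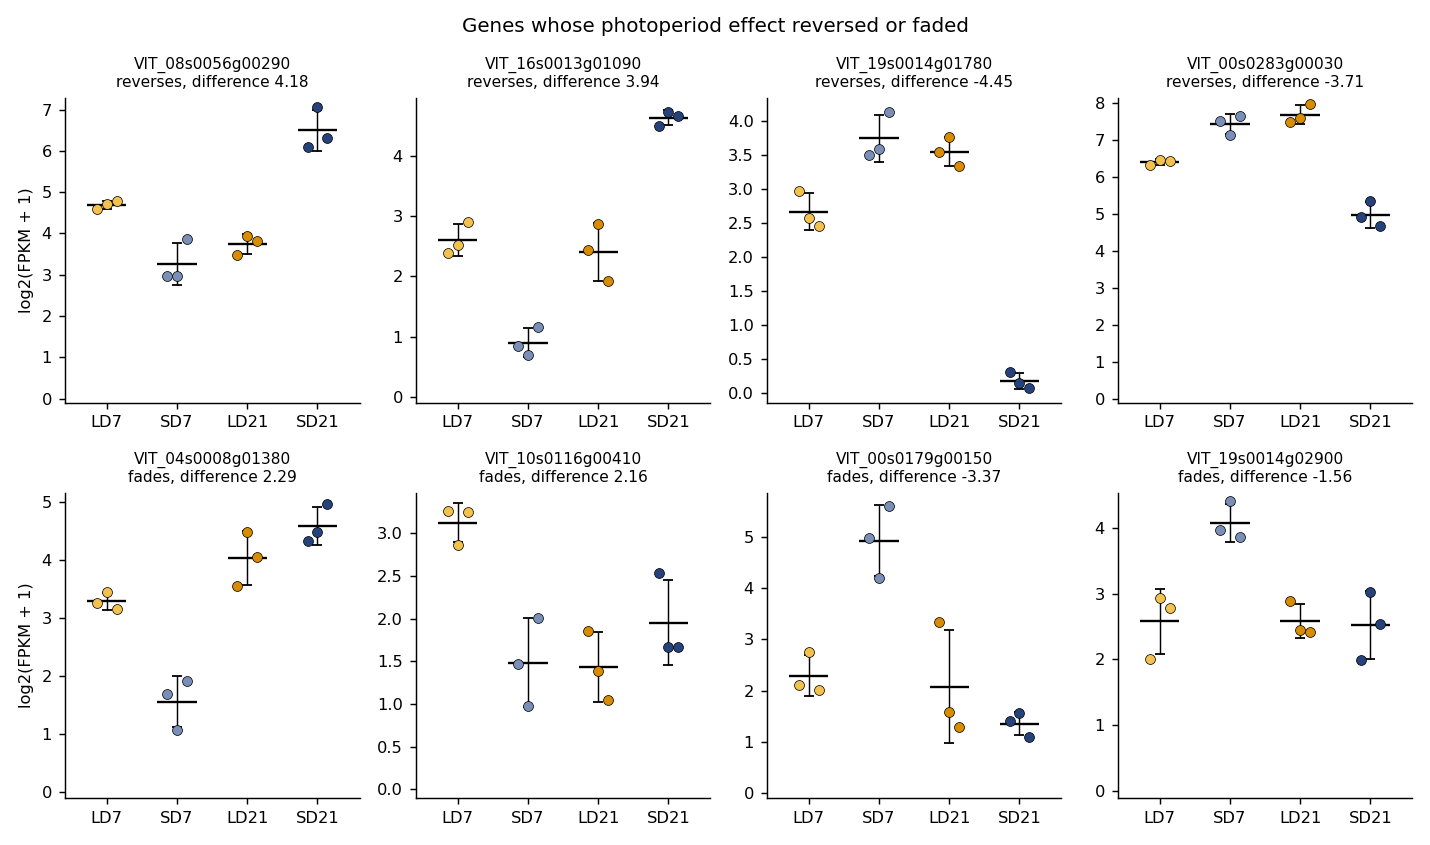
Points are single libraries on the log2(FPKM + 1) scale in the groups LD7, SD7, LD21 and SD21, horizontal bars are group means and error bars are SDs (n = 3), with 4 genes whose effect reversed above and 4 whose effect faded below. In the upper panels SD7 and SD21 lie on opposite sides of the long-day libraries of the same day, and in the lower panels the photoperiods are apart at day 7 and close or overlapping at day 21.

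In 27 genes the effect was called at both days in 1 direction and was larger at day 21 by 1 or more. There were 11 that became higher and 16 that became lower, with median effects of 0.77 and then 2.81, and of -0.85 and then -2.92. The majority turned with the scaling, to 17 higher against 13 lower with quantile and 12 against 5 with median-ratio scaling. VIT_15s0048g02870 (chromosome 15, 16989775 to 16991236) was at 8.88, 10.7 and 9.68 FPKM in LD7 against 15.9, 16.3 and 18.6 in SD7, and at 6.78, 9.48 and 10.1 in LD21 against 175, 155 and 160 in SD21. Long-day levels overlapped between the days, and short-day levels stood above them at day 7 and far above them at day 21. The effects were 0.74 ± 0.14 (SE, limma, adjusted p = 0.043) and 4.09 ± 0.14 (adjusted p = 1.9e-08), a day difference of 3.35 ± 0.20 (adjusted p = 1.4e-06).

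VIT_10s0042g00200 (chromosome 10, 13041836 to 13049161) was at 27.8, 26.3 and 29.8 FPKM in LD7 against 38.6, 40.2 and 47.0 in SD7, and at 13.9, 13.0 and 15.3 in LD21 against 139, 118 and 121 in SD21. No group overlapped another. Its day difference of 2.51 ± 0.16 (SE, limma, adjusted p = 1.7e-06) held a fall of -0.94 ± 0.11 under long days (adjusted p = 0.0014) and a rise of 1.57 ± 0.11 under short days (adjusted p = 7.2e-07). Its day 7 call (adjusted p = 0.048) was lost without any 1 of the 12 libraries.

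VIT_18s0001g02360 (18_random, 2669882 to 2677720) was lower under short days at day 7 and at or near 0 by day 21, with a day difference of -3.38 ± 0.61 (SE, limma, adjusted p = 0.00078). It was at 19.5, 62.3 and 29.7 FPKM in LD7 against 6.94, 4.67 and 3.64 in SD7, and at 108, 73.0 and 51.4 in LD21 against 0, 0 and 0.976 in SD21. VIT_18s0001g11760 (chromosome 18, 10039533 to 10043859) was at 96.4, 157 and 90.2 FPKM in LD7 against 47.8, 22.9 and 33.8 in SD7, and at 353, 310 and 224 in LD21 against 12.0, 10.2 and 8.55 in SD21. In both genes the photoperiods did not overlap on either day, and the LD21 mean lay above the LD7 mean while SD21 lay below SD7. In VIT_18s0001g11760 the change with time was called under both, at 1.38 ± 0.28 under long days (SE, limma, adjusted p = 0.011) and -1.62 ± 0.28 under short days (adjusted p = 0.00046), and the day difference was -3.01 ± 0.40 (adjusted p = 9.5e-05).

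The 4 day 7 calls among these growing genes were lost without any 1 of LD7 replicates 1, 2 and 3 and SD7 replicates 2 and 3, and without LD21 replicate 2, among other libraries, with adjusted p up to 0.21 (limma). The count of 27 was 0 without any 1 of LD7 replicates 1, 2 and 3 (limma), 6, 1 and 7 on omitting SD7 replicates 1, 2 and 3, and 7 and 12 on omitting LD21 replicate 2 and SD21 replicate 1. In the 3 fits without an LD7 library, 2389 of 21755, 2158 of 21773 and 2908 of 21770 tested genes had an unadjusted p under 0.05 at day 7 (limma). With any 1 library left out, the 27 genes had the same signs on both days and a called day difference. They were chosen by these calls in the same libraries, so the refits are no separate support for a growing effect. With all 12 libraries, the day 7 calls of VIT_16s0013g01090, VIT_04s0008g01380 and VIT_18s0001g11760 held under all 7 other settings of the fit. The other 9 of the genes named here as reversed, fading or growing lost theirs under 2 to 5 of the 7, all 9 with the replicate block and 8 without the filter on low values, at adjusted p from 0.0501 to 0.167.

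Genes with a day difference of 1 or more in 1 direction also lay side by side. Since families could not be named, stretches of at least 6 consecutive tested genes on the numbered chromosomes, all called at 1 or more in the same direction, were listed after the data had been seen. There were 27 such runs with 191 of the 19646 tested genes on numbered chromosomes, 10 toward higher (77 genes) and 17 toward lower levels (114 genes). They are a description without a test, and neighbours of near-identical sequence can share reads, so values of single genes in a run are uncertain. All day differences of a run are called by construction, and refits of the same libraries below are no separate support. By their median effects, 16 of the 17 lower runs were late, and among the 10 higher runs 5 were late, 4 reversed and 1 faded. Several genes of the late higher runs reached 1 FPKM only in SD21, as given below.

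The run with the most genes lay on chromosome 3 at 883688 to 927965, with 14 genes from VIT_03s0038g01160 to VIT_03s0038g01310, and was the 1 lower run that reversed. Its genes summed to 139, 165 and 228 FPKM in LD7 against 294, 472 and 227 in SD7, and to 139, 154 and 195 in LD21 against 40.5, 61.9 and 17.5 in SD21. SD7 lay mostly above LD7, with SD7 replicate 3 no higher than LD7 replicate 3, and SD21 lay below all other libraries. The median effect was 0.81 at day 7, where it was positive in all 14 genes but called in 0 (limma; 0.357% of all tested genes were called higher). In 5 of the 14 all SD7 libraries lay above all LD7 libraries, as in 11.1% of all tested genes. At day 21 the median effect was -1.64 and 12 of the 14 were called lower (43.7% of all tested genes). The day differences ran from -3.21 to -1.59. At least 12 of the 14 were called with any 1 library left out, and 12 after either other scaling. The flanking genes VIT_03s0038g01150 and VIT_03s0038g01320 had day differences of -0.81 (limma, adjusted p = 0.15) and 0.69 (adjusted p = 0.014).

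The next run by number of genes, 11 on chromosome 4 at 7244107 to 7521694, reversed in the opposite sense. The 11 genes summed to 151, 152 and 146 FPKM in LD7 against 80.7, 110 and 101 in SD7, and to 53.6, 84.3 and 95.7 in LD21 against 509, 527 and 353 in SD21. The photoperiods did not overlap on either day, and the LD21 sum was below the LD7 sum. The median effect was -0.82 at day 7, with 8 genes in which all SD libraries lay below all LD libraries (13.7% of all tested genes did so) and 0 called (limma; 0.476% of all tested genes were called lower). At day 21 it was 2.21, with 11 of 11 called higher (24.6% of all tested genes), and under long days 7 of the 11 fell with time (7.63% of all tested genes). The day differences ran from 1.64 to 3.83 and were called in all 11 with each library left out and with either other scaling. VIT_04s0008g07220, with the largest, was at 20.0, 18.7 and 16.0 FPKM in LD7 against 7.17, 11.3 and 8.16 in SD7, and at 4.20, 9.50 and 10.8 in LD21 against 58.5, 81.3 and 48.6 in SD21.

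The fading run lay on chromosome 16 at 6676141 to 6871530 and held 8 genes. They summed to 485, 455 and 552 FPKM in LD7 against 117, 67.5 and 297 in SD7, and to 616, 1270 and 849 in LD21 against 1077, 1248 and 1038 in SD21. SD7 lay below LD7 in all 8 genes without overlap, as in 13.7% of all tested genes, SD7 replicate 3 was the highest SD7 library, and LD21 and SD21 overlapped. The effects of the 8 genes at day 7 ran only from -1.95 to -1.58, yet 0 were called (limma, adjusted p from 0.055 to 0.11; 0.476% of all tested genes were called lower). At day 21 they ran from -0.06 to 0.48, again with 0 called, against 68.3% of all tested genes called in either direction. The day differences, 1.51 to 2.35, were all called, with at least 7 of 8 when any 1 library was left out.

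Also on chromosome 16, at 5357331 to 5565168, the median effect of 8 genes was -0.81 at day 7 and 1.29 at day 21, with a median day difference of 1.86. At day 7, 1 of the 8 was called lower (limma; 0.476% of all tested genes) and in 4 all SD libraries lay below all LD libraries (13.7% of all tested genes), while VIT_16s0013g00350 was positive on both days, at 0.49 and 2.22. At day 21, 7 of the 8 were called higher (24.6% of all tested genes), and VIT_16s0013g00330 alone was called in opposite directions on the 2 days. Their sums were 52.6 ± 10.2 FPKM (SD, n = 3) in LD7, 36.2 ± 3.28 in SD7, 33.3 ± 4.62 in LD21 and 101 ± 17.1 in SD21. The reversed gene VIT_16s0013g01090 given above lies close to the fading run. Chromosome 16 as a whole had 26.8% of its tested genes called toward higher levels, against 19.6% of all tested genes and 15.7% on chromosome 9, the highest and the lowest share among the 19 numbered chromosomes.

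The 2 other runs whose median effect changed sign lay on chromosome 2 at 3775408 to 3822797 and on chromosome 5 at 1232006 to 1272235. The 8 genes on chromosome 2 summed to 379 ± 80.1 FPKM (SD, n = 3) in LD7, 211 ± 37.9 in SD7, 155 ± 34.9 in LD21 and 458 ± 156 in SD21, and all 8 day differences were called with the 12 libraries. Of the 8, 4 were called without LD7 replicate 2 or SD7 replicate 2, and 5 without LD7 replicate 3, SD7 replicate 1 or LD21 replicate 2. The 7 genes on chromosome 5 summed to 301 ± 138, 200 ± 91.4, 145 ± 64.3 and 3012 ± 979 FPKM, with 93.7% of the sum in VIT_05s0077g01580. The sums of the chromosome 5 genes overlapped between LD7 and SD7. VIT_05s0077g01600 was under 1 FPKM in every library outside SD21, so it was tested only through the group where it was high. The median effects were -0.88 and -0.58 at day 7, with 0 of 8 and 0 of 7 genes called (limma; 0.476% of all tested genes were called lower) and with SD7 wholly below LD7 in 4 of 8 and 1 of 7 (13.7% of all tested genes). At day 21 they were 1.53 and 2.63, with 5 of 8 and 7 of 7 called higher (24.6% of all tested genes). Runs with a day 7 median under 0.5 in size were counted as late. The chromosome 5 run, at -0.58, is thus barely set apart from a late run.

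Late runs were seen in both directions. On chromosome 18 at 12821157 to 12890179, 7 genes summed to 24.6, 25.8 and 29.4 FPKM in LD7 against 23.9, 21.2 and 24.6 in SD7, and to 14.9, 15.1 and 18.5 in LD21 against 169, 140 and 142 in SD21. The photoperiods overlapped in these sums at day 7, LD21 was lowest, and SD21 lay far above all other libraries. VIT_18s0001g14770 and VIT_18s0001g14780 were under 1 FPKM in every library outside SD21, so they were tested only through the group where they were high. With any 1 SD21 library left out, 5 of the 7 day differences were called. On chromosome 14 at 26537038 to 26686575, 7 genes summed to 232 ± 37.8 FPKM (SD, n = 3) in LD7, 204 ± 62.2 in SD7, 176 ± 68.8 in LD21 and 19.3 ± 13.1 in SD21. Their median day differences were 2.57 and -2.17. Genes tested only through SD21 also lay in late higher runs on chromosomes 4 (from 212860), 16 (from 19697404) and 19 (from 4694352). With 1 SD21 library left out, 5 or 6 of the 8 day differences were called on chromosome 4. On chromosome 16 it was 2 of 6, and on chromosome 19 it was 1 or 2 of 6.

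**Figure D4:**
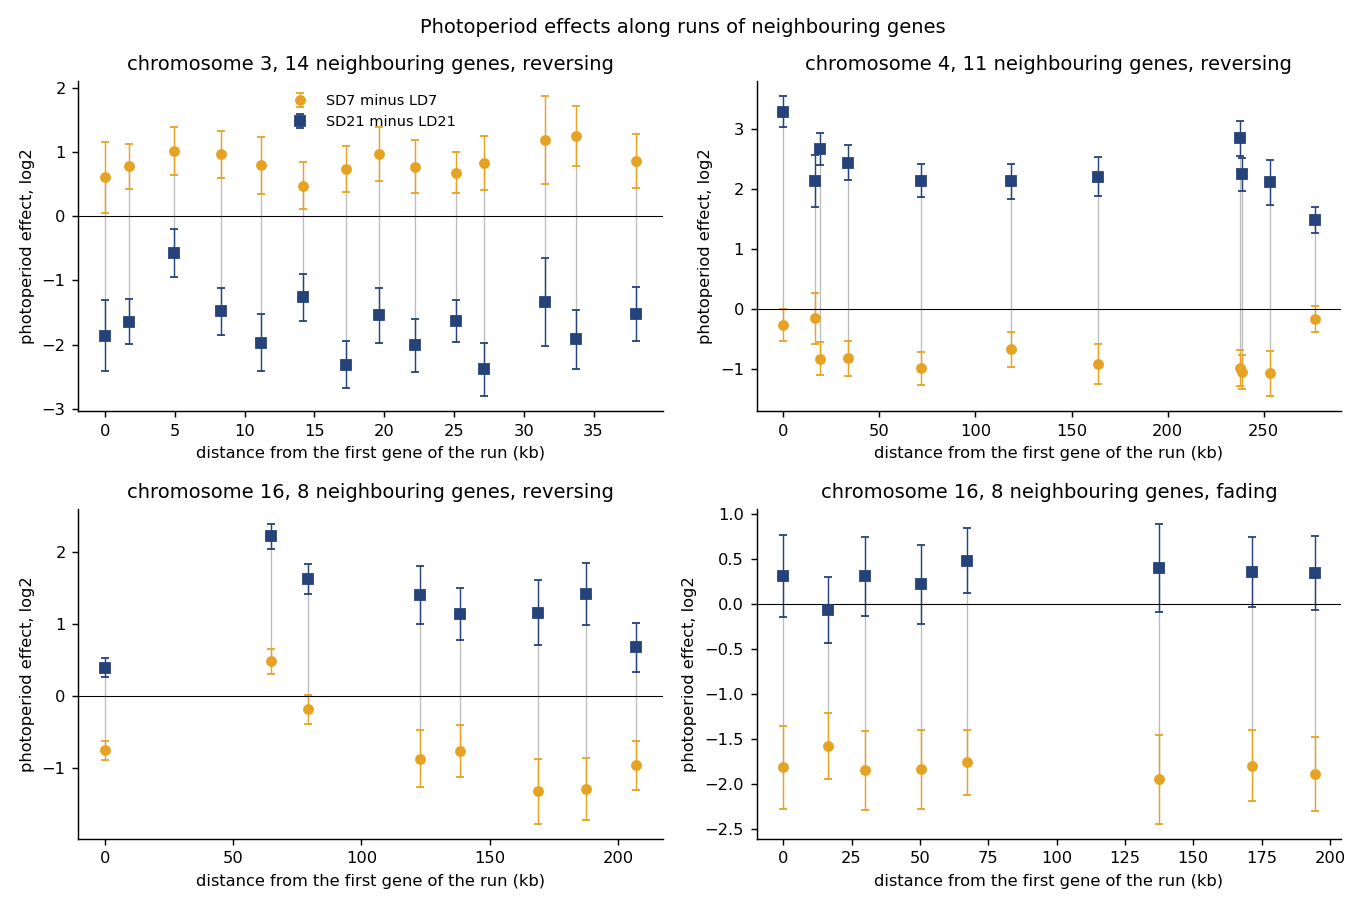
The photoperiod effect on the log2(FPKM + 1) scale is plotted against the distance in kb from the first gene of a run, at day 7 (orange circles, SD7 minus LD7) and day 21 (blue squares, SD21 minus LD21), with SEs of the limma fit as error bars and a grey line joining the days of a gene. In the chromosome 3 run the effect passes from above to below 0, in the chromosome 4 run and the first chromosome 16 run it passes mostly from below to above 0, and in the last panel it passes from near -1.8 to near 0.

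Which photoperiod moved with time can be read from the same libraries, again as a description. Of the genes with a day difference of 1 or more, 2096 of the positive and 3797 of the negative ones (69.1% and 73.2%) had a called change from day 7 to day 21 under short days only. Another 629 and 1065 had called changes under both photoperiods in opposite directions, which is 20.7% and 20.5%. A change under long days only was called in 187 and 142, both changed in the same direction in 39 and 72, and neither change was called in 82 and 111. Over all tested genes a change with time was called in 61.1% under short days and in 18.1% under long days. The count of negative genes that moved under long days only was 77, 65 and 49 without LD7 replicate 2, LD7 replicate 3 and LD21 replicate 2. The opposite-direction counts were 342 and 389 without LD7 replicate 2, 275 and 280 without LD7 replicate 3, 414 and 622 without LD21 replicate 1, and 318 and 290 without LD21 replicate 2, and the negative one was 674 after quantile normalization and 540 after median-ratio scaling.

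**Figure D5:**
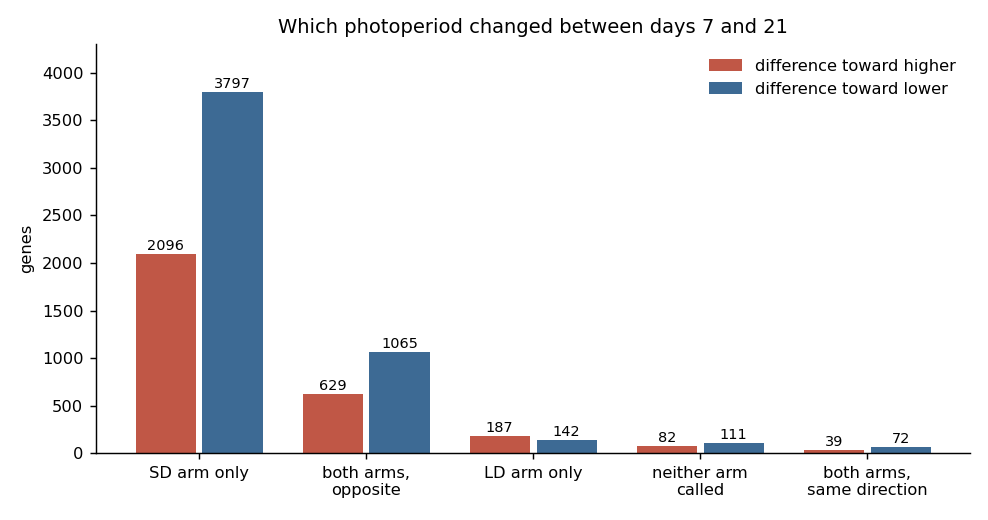
Bars give the number of genes, among those with a day difference of 1 or more on the log2 scale, by the photoperiod in which the change from day 7 to day 21 was called, with positive day differences in red and negative ones in blue. The tallest bars, 2096 and 3797 genes, belong to genes that changed under short days only.

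Among the genes that moved under long days only, 4 were picked after their values had been seen. VIT_03s0063g00370 (chromosome 3, 3930216 to 3933793) was at 95.7, 120 and 113 FPKM in LD7 against 69.6, 66.5 and 82.3 in SD7, and at 8.21, 5.03 and 7.91 in LD21 against 79.6, 74.3 and 58.0 in SD21. LD21 alone was low, and the short-day libraries of the days overlapped. The fall under long days was -3.80 ± 0.18 (SE, limma, adjusted p = 4.9e-06), SD21 against SD7 gave -0.05 ± 0.18 (adjusted p = 0.83), and the day difference was 3.75 ± 0.26 (adjusted p = 2.1e-06). VIT_07s0005g00870 (chromosome 7, 3482970 to 3484188) was at 19.1, 61.9 and 184 FPKM in LD7 against 47.2, 53.0 and 26.4 in SD7, and at 3.68, 0.977 and 7.75 in LD21 against 83.4, 49.7 and 38.2 in SD21. LD21 was again the low group, with a wide spread in LD7, and the day difference was 4.24 ± 1.08 (adjusted p = 0.0075).

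In the other direction, VIT_00s0480g00100 (Un, 30189967 to 30191076) was at 32.2, 50.0 and 9.16 FPKM in LD21, and its neighbour VIT_00s0480g00090 (Un, 30189136 to 30189565) at 42.4, 59.0 and 11.6. In the other groups the mean FPKM were 3.53 (LD7), 3.99 (SD7) and 1.04 (SD21) for VIT_00s0480g00100, and 4.14, 4.14 and 1.92 for VIT_00s0480g00090. Only LD21 stood high in both. SD21 against SD7 gave -1.27 ± 0.54 (SE, limma, adjusted p = 0.062) for VIT_00s0480g00100 and -0.83 ± 0.51 (adjusted p = 0.18) for VIT_00s0480g00090. In both genes all SD21 libraries lay below all SD7 libraries, so a fall under short days that missed the call is possible. The day differences were -3.84 ± 0.76 (SE, limma, adjusted p = 0.0015) and -3.51 ± 0.73 (adjusted p = 0.0019), and the 2 loci lie side by side and may share reads.

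Of the genes with a day difference of 1 or more, 7036 fell into these 4 classes and 1184 into none. In 1176 of the latter the day 7 effect was 0.5 or more in size but not called, and in 565 it had the opposite sign to a called effect at day 21. Counting the day 7 effect at an unadjusted p under 0.05 in place of the adjusted one gave 663 reversed, 140 fading and 726 growing genes. The day difference was called less often in short loci, at 26.4% of the 424 tested genes with a locus of up to 300 bp and 42.2% of those of 301 to 600 bp, against 58.7% at 1501 to 5000 bp. Of the 182 genes called at day 7, 126 had a called day difference and 56 did not.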

How the data were processed

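The files give, per their headers, a locus and an FPKM value for each gene and library, as deposited by the authors. The submitters' processing notes name Cufflinks 2.2.1, TopHat2 2.0.13, Bowtie2 2.2.4, cutadapt 1.8.1 and FastQC 0.11.3, without roles or settings. Not given in the sources used here are the genome build, the annotation, the use of strand and the sharing of reads among similar genes. Reads were 43 bp long, per the labels' protocols. In 1 library, SD21 replicate 3, the header of the values names replicate 2. It was kept as replicate 3, since no pair of libraries within a group had more than 1 nonzero value in common. None of the 29970 identifiers was found in the reference gene table (0 matched), so the planned gene families and tissue markers could not be examined, and runs of neighbouring genes were described in their place.

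Values of log2(FPKM + 1) were fitted by limma 3.58.1 (R 4.3.3), with 4 group means over 12 libraries, eBayes with trend and robust, and a Benjamini-Hochberg adjusted p under 0.05. Only genes with 3 or more libraries at 1 FPKM or above entered. All groups share a single estimate of the spread, as 3 libraries leave few degrees of freedom. An exact two-sided permutation test of 3 libraries against 3 cannot give a p below 0.1, so none is given. Absolute depth is unknown, relative depth ran from 1.0 to 1.58 by the spacing of low values, and p-values rest on the spread between replicates of 5 vines. Named genes are the 2 with the largest day difference in each class and direction whose SD and LD libraries did not overlap on the day or days carrying the effect, with 5 FPKM or more on average in the higher group. The comparison, the classes and the lists were chosen with earlier results of these data known, and the runs and the 4 genes of the long-day arm after their values were seen. Zeros are reported as listed, because 13 genes were at 0 in some library although 10 or more others had them above 20 FPKM. The plots were made in matplotlib 3.10.9 under Python 3.11.15. Alternatives were 2 scalings, a pseudocount of 0.1, no filter or one of 5 FPKM, limma without trend, the replicate number as a block, other class limits and each library left out.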

Additional observations from a re-analysis of the deposited data

Results flagged for a closer look

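Each result here is a photoperiod effect that differed between the days by the test of the difference itself (limma, adjusted over all tested genes). Such a difference was called in 12045 genes. Among the named late genes it was 8.21 in VIT_00s0226g00170, 7.06 in VIT_19s0014g02740 and -9.14 in VIT_07s0130g00030 on the log2 scale, and it was called in VIT_09s0018g00510 with an adjusted p of 1.6e-07, where SD21 is listed at 0. Among the reversed genes it was 4.18 in VIT_08s0056g00290, 3.94 in VIT_16s0013g01090, -4.45 in VIT_19s0014g01780 and -3.71 in VIT_00s0283g00030. Among the fading genes it was 2.29 in VIT_04s0008g01380, 2.16 in VIT_10s0116g00410, -3.37 in VIT_00s0179g00150 and -1.56 in VIT_19s0014g02900. Among the growing genes it was 3.35 in VIT_15s0048g02870, 2.51 in VIT_10s0042g00200, -3.38 in VIT_18s0001g02360 and -3.01 in VIT_18s0001g11760.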

How the results depend on the processing

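The day differences of the 20 named genes were called with the same sign in every alternative fit, 380 of 380 comparisons of a gene in a fit. These genes were chosen for large differences in the same libraries, so this is no separate support. Of the counts, 68 of 106 stayed within 1.5 times under other settings and 129 of 192 with 1 library left out. The cause was not tested for those that moved, except that a stricter limit on the day difference leaves fewer genes, and an unadjusted day 7 p admits more, by construction.

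Reversed genes that were lower first (32) numbered 16 without the filter, 21 in limma without trend, 18 with the replicate block and 389 at an unadjusted day 7 p. Reversed genes that were higher first (10) numbered 16 after quantile normalization, 6 after median-ratio scaling, 3 with the block, 274 at an unadjusted p and 5 at a day difference of 2 or more. Fading genes with a positive difference (17) numbered 11 after median-ratio scaling, 7 without the filter, 6 with the block, 96 at an unadjusted p and 7 at a difference of 2 or more. Those with a negative one (8) numbered 3, 3, 4, 44 and 1 in the same order, and 5 without trend. Growing genes toward higher levels (11) numbered 17 after quantile normalization, 5 without the filter, 5 without trend, 6 with the block, 196 at an unadjusted p and 4 at 2 or more. Those toward lower levels (16) numbered 5 after median-ratio scaling, 10 with a pseudocount of 0.1, 4 without the filter, 8 without trend, 4 with the block, 530 at an unadjusted p and 8 at 2 or more. Late genes at a difference of 2 or more numbered 724 and 1533. Scalings and left-out libraries of the time changes were added after seeing the data. There, median-ratio scaling gave 84 negative genes that moved under long days only (142), and the opposite-direction negative count (1065) was 674 after quantile normalization and 540 after median-ratio scaling.

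With 1 library left out, called differences ran from 3827 to 4214 positive and 6922 to 7677 negative, late genes from 2095 to 2430 and 3978 to 4694, reversed from 0 to 43 and 0 to 19, fading from 0 to 30 and 0 to 9, and growing from 0 to 17 and 0 to 16. Genes that moved under short days only ran from 1801 to 2437 and 3477 to 4475, under long days only from 127 to 233 and 49 to 188, and in opposite directions from 275 to 758 and 280 to 1214. Without LD7 replicate 2 all reversed, fading and growing counts from limma were 0. In that fit 2158 of 21773 tested genes had a day 7 p below 0.05 before adjustment (limma). A share of 0.05 would fall there without any effect, so the count does not show which day 7 effects remain.

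The deviations of same-numbered replicates had low correlations (18 pairs, from -0.127 to 0.203, 2 of them over 0.1). Differently numbered replicates were not compared, so whether the numbers pair the samples is not settled. The replicate block gave 4205 positive and 7593 negative calls, and 2363 and 4572 late genes. Genes called at day 7 numbered 74 with the block and 182 without it.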

Other observations

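A few genes were listed above 0 in 1 group only. VIT_01s0010g00880 (chromosome 1, 16263185 to 16268751) had 4.83, 4.48 and 3.77 FPKM in the LD7 libraries and was listed at 0 in the other 9, and VIT_08s0007g06970 (chromosome 8, 20604957 to 20605143) had 3.34, 3.48 and 3.99 FPKM in the LD21 libraries and 0 elsewhere. Among genes at 1 FPKM or more in all libraries of a group and at 0 in all others, there were 3 for SD21 and 0 for SD7. In the other direction, 17 genes were listed at 0 in all SD21 libraries and at 1 FPKM or more in each of the other 9, and 0 were so for any other group. These genes were chosen after their values were seen, and no fold is given.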
